A study of Homo sapiens with 18 samples.

Results

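Translation of an mRNA starts when initiation factors bring the small ribosomal subunit and the initiator tRNA to the start codon, and it goes on when elongation factors deliver each further tRNA and move the ribosome along. EIF1, EIF2, EIF3 and EIF5 act on the small subunit, the EIF4 factors bind and open the capped end of the mRNA, and EEF1 and EEF2 drive elongation. Kinases that phosphorylate EIF2, proteins that sequester the cap-binding factor EIF4E, and the kinase that inactivates EEF2 are known brakes on this machinery. The translation initiation and elongation factors described here were chosen by name, as the protein-coding genes of GENCODE v29 whose symbol begins with EIF or EEF followed by a digit. There were 71 such genes among 19951 protein-coding genes of the annotation, 69 of them in the expression table of 58302 genes. Of these 69, 62 passed the filter on expression (at least 1 FPKM in at least 3 libraries, where FPKM are reads scaled to gene length and to the reads of the library), together with 12982 genes in all.

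All data came from PANC-1, an established line of pancreatic ductal carcinoma. Cells carrying a lentiviral control vector (shCtrl), which the labels call empty while the study's reagent list holds a non-targeting shRNA, were compared with cells carrying a lentiviral shRNA against NAT10 (shNAT10), the enzyme that writes ac4C, an acetylated cytidine, into RNA. RNA-seq was made from 3 libraries per group, and acRIP-seq, in which fragmented RNA is immunoprecipitated with an antibody against ac4C, from 3 IP and 3 input libraries per group. As far as the labels say, the groups differ only in the shRNA. The sources do not name which NAT10 shRNA these libraries carry, nor whether the 3 libraries of a group came from separate cultures, so that p-values measure only the spread between these libraries.

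NAT10 itself stood at 29.3 ± 2.01 FPKM in shCtrl and 8.09 ± 0.301 FPKM in shNAT10 cells (SD, n = 3), a log2 fold change of -1.84 (limma, adjusted p = 3.85e-05; exact permutation test on the 6 values, two-sided p = 0.1, the smallest that this design allows). The RNA-seq libraries held between 15831720 and 23521762 reads, as worked out from the steps of their FPKM values. The library of shCtrl replicate 2 stood apart, with values that fell with the length of the transcript (Spearman correlation of -0.44 over 12952 genes, a description across genes), against correlations between -0.08 and 0.22 in the other 5 libraries. Of the markers of ductal epithelium, KRT8, KRT18, KRT19 and KRT7 were lower in shNAT10 cells and SOX9 was higher. The summed level of the ductal markers was 2823 to 3781 FPKM in shCtrl and 1513 to 1694 FPKM in shNAT10 libraries, and markers of leukocytes, endothelium, acinar cells, islets and hepatocytes summed to at most 2.93 FPKM per list. CD14, the only leukocyte marker that could be tested, was lower (-0.75). COL1A1, listed as a fibroblast marker, was lower too, with COL1A1 and DCN summing to 28.6 to 34.0 FPKM in shCtrl and 17.25 to 20.8 FPKM in shNAT10 libraries, nearly all of it COL1A1. The part of these shifts in the results was not tested, and in bulk RNA fewer cells of a type and less RNA per cell cannot be told apart.

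Expression of the factors was compared between shNAT10 and shCtrl cells with limma on log2(FPKM + 0.1), fitted on all 12982 genes, and a gene was called at a Benjamini-Hochberg adjusted p under 0.05. Of the 62 tested factor genes, 11 were higher and 17 were lower in shNAT10 cells. Among all genes tested, 20.8% were called higher, 21.2% lower and 42.0% in either direction, and the 28 called factor genes were 45.2% of those tested. The median log2 fold change of the factor genes was -0.02, beside -0.01 for all genes. None passed a log2 fold change of 1 in the limma fit, at the adjusted or the unadjusted threshold, the largest change being 0.91, and voom on recovered reads gave 0 as well, against 6.48% of all genes and 4.05% of genes with a mean of 20 to 100 FPKM. The FPKM of the groups did not overlap for 38 of the 62 (16 higher, 22 lower), beside 56.5% of all genes. Read against these shares, the factor genes as a list were called in a share near that of all genes, with changes in both directions.

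**Figure D1:**
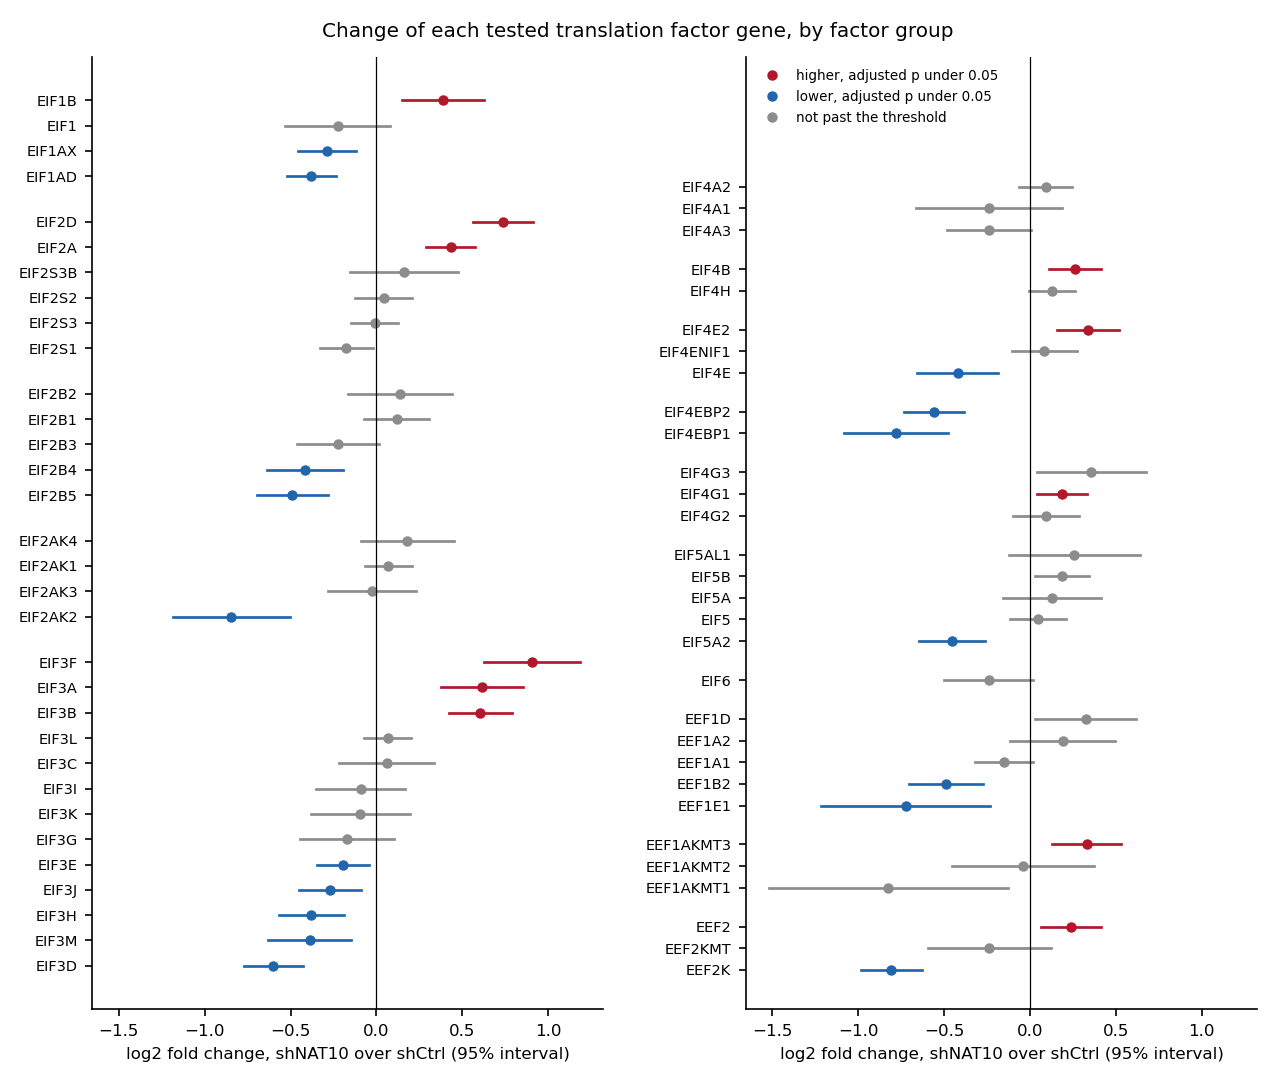
Log2 fold change (shNAT10 over shCtrl, horizontal axis, on the log2(FPKM + 0.1) scale) of each of the 62 tested factor genes, in blocks by factor group, with 95% intervals from limma. Red points are the 11 genes called higher, blue points the 17 called lower, and grey points did not pass an adjusted p of 0.05. EIF3 holds members called in both directions, from 0.91 for EIF3F to -0.60 for EIF3D, while the lowest value of all was -0.84 for EIF2AK2.

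The scale of a library matters for small changes. When the values were rescaled so that all libraries have the same sum (TPM), the median of all genes moved from -0.01 to 0.10, the calls over all genes from 2699 higher and 2751 lower to 3355 and 2075, and the factor calls to 17 higher and 14 lower. The median of the factor genes moved alike, to 0.09. No called factor gene changed direction in any of the 16 alternatives, and 15 of the 28 calls were made in every alternative that could test them. These 15 were EIF3A, EIF3B, EIF3F, EIF2A and EIF2D on the higher side, and EIF3D, EIF3H, EIF1AD, EIF2AK2, EIF2B5, EIF4EBP1, EIF4EBP2, EIF5A2, EEF1B2 and EEF2K on the lower side.

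Many mRNAs of the translation machinery begin with a C and a run of pyrimidines, a start through which mTORC1 and LARP1 are known to control them. In RefSeq promoter sequences of GRCh38.p14, matched by symbol for 57 of the 71 factor genes, a C followed by at least 4 pyrimidines (C or T) at the annotated first base, read on the strand of the gene alone, was present for 13 genes (22.8%), beside 4.07% of all 35116 promoters. These shares are in unlike units, since a factor gene was counted when any of its promoters matched. All 13 genes were tested, with 5 higher, 3 lower and 5 without a call, a median of 0.09. The 36 tested genes with a matched start and no such run were 4 higher and 11 lower, with a median of -0.07. This grouping was chosen after the changes were seen. Among all genes tested, 20.8% were called higher and 21.2% lower. Calls of all genes with and without such a start were not worked out. No link between the start and the direction of change is therefore read from these counts. The starts of the 8 called genes are shown because genes with this kind of start moved both ways, each with 15 bases before and 15 from the first base, and capitals mark the run from the first base within the window.
EIF3F (chr11:7987322-7987351, plus strand): ttccgcttccgcctcCTTCTTTCTCgacaa
EIF2D (chr1:206612451-206612480, minus strand): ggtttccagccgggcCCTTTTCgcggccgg
EIF2A (chr3:150546772-150546801, plus strand): tcacccgagcggtttCTCTTTCCgggacaa
EIF4B (chr12:53006441-53006470, plus strand): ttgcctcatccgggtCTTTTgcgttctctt
EEF2 (chr19:3985449-3985478, minus strand): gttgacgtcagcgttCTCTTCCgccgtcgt
EIF3D (chr22:36529152-36529181, minus strand): gcgcgcgcatgtttcCTCTTTTCCTggttt
EEF1B2 (chr2:206159880-206159909, plus strand): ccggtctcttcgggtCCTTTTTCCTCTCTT
EIF3M (chr11:32583816-32583845, plus strand): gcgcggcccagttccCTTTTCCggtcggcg
The first 5 of these genes were higher (log2 fold changes 0.91, 0.74, 0.43, 0.26 and 0.24) and the last 3 lower (-0.60, -0.49 and -0.39). Runs of 10 bases stood at the starts of both EIF3F and EIF3D, the genes at both ends of the EIF3 range. The annotated first base may not be the one used in these cells, and a match is a description of letters only.

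EIF3, the largest initiation factor, is a scaffold of subunits that binds the small ribosomal subunit, and its genes went in opposite directions. Of its 14 genes 13 were tested, 3 of them higher, 5 lower and 5 without a call, with a median log2 fold change of -0.09. EIF3F (ENSG00000175390, chromosome 11, plus strand, 7970251 to 8001862 of GRCh38) had the largest rise of all factor genes. It stood at 12.7, 17.2 and 14.3 FPKM in the shCtrl libraries and at 27.8, 29.4 and 25.6 FPKM in the shNAT10 libraries. The groups were far apart, with every shNAT10 library above the highest shCtrl library, which was replicate 2, and the log2 fold change was 0.91 (standard error 0.12, adjusted p = 0.00134). EIF3A, the largest subunit, was at 88.0, 67.6 and 82.4 FPKM in shCtrl and at 121, 119 and 121.5 FPKM in shNAT10 libraries. Its lowest value was that of shCtrl replicate 2, and all shNAT10 values were above all shCtrl values (log2 fold change 0.61, standard error 0.10, adjusted p = 0.0034). EIF3B, which binds EIF3A in the core of the complex, was at 86.5, 100.4 and 85.7 FPKM in shCtrl and at 139.9, 138 and 135.7 FPKM in shNAT10 libraries. Here shCtrl replicate 2 was the highest control, again with no overlap (log2 fold change 0.605, standard error 0.08, adjusted p = 0.00122).

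EIF3D, a subunit that can itself bind the cap of some mRNAs, had the largest fall in the complex and is described after its values were seen, since 3 members of the group changed more. It stood at 79.0, 91.7 and 81.6 FPKM in shCtrl and at 55.05, 54.8 and 56.2 FPKM in shNAT10 libraries. The shNAT10 libraries were close to each other and all below the controls (log2 fold change -0.60, standard error 0.07, adjusted p = 0.00103). EIF3M (-0.39, adjusted p = 0.0214), EIF3H (-0.38, adjusted p = 0.00957), EIF3J (-0.27, adjusted p = 0.0272) and EIF3E (-0.20, adjusted p = 0.0434) were lower as well. EIF3K had the highest level of the complex, at 625, 868 and 682 FPKM in shCtrl and 677, 696 and 647 FPKM in shNAT10 libraries, and its groups overlapped (-0.09, adjusted p = 0.572). EIF3L, EIF3C, EIF3I and EIF3G were between 0.06 and -0.17 with no call.

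The subunits of the complex fall into known modules. In the core of EIF3A, EIF3B, EIF3G and EIF3I EIF3A and EIF3B were higher and the other two had no call. EIF3F, EIF3H and EIF3M sit together in another module, and EIF3F was higher where EIF3H and EIF3M were lower. EIF3C, EIF3D, EIF3E, EIF3K and EIF3L form the third, with EIF3D and EIF3E lower and the others without a call. The calls of EIF3E, EIF3J and EIF3M were lost without shCtrl replicate 3 (adjusted p = 0.135, 0.1 and 0.0652) and without each of the shNAT10 libraries (adjusted p from 0.0554 for EIF3M to 0.147 for EIF3E), and those of EIF3E and EIF3J also with TPM (adjusted p = 0.169 and 0.105) and with no filter (0.109 and 0.0538). The call of EIF3E was made in only 5 of 16 alternatives, being lost as well with median centring, quantile normalization, the replicate block, no trend and voom (adjusted p = 0.0538 to 0.0757). EIF3C shares near-identical sequence with EIF3CL, which was under the filter, so that its level of 4.37 FPKM in shCtrl cells is uncertain, as is that of EIF3L, 41.1% of whose exon bases lie under another gene on the same strand.

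**Figure D2:**
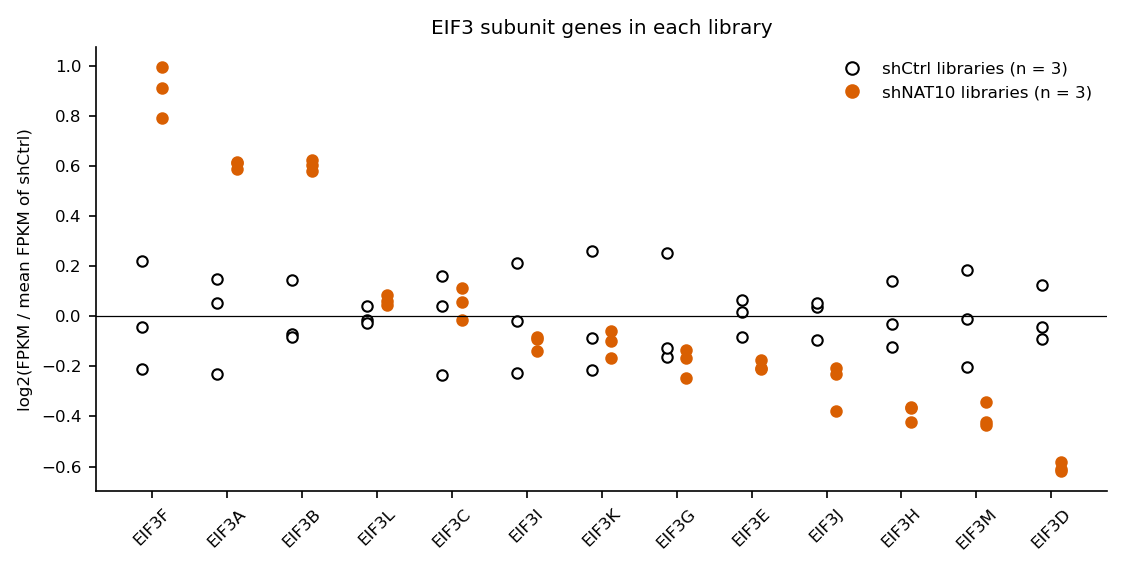
Level of the 13 tested EIF3 subunit genes in each RNA-seq library, as log2 of the FPKM over the mean FPKM of the 3 shCtrl libraries (vertical axis), with open points for shCtrl and filled points for shNAT10 libraries. The 3 shNAT10 points of EIF3F, EIF3A and EIF3B lie above all shCtrl points, those of EIF3L lie just above, those of EIF3E, EIF3J, EIF3H, EIF3M and EIF3D lie below, and those of EIF3C, EIF3I, EIF3K and EIF3G overlap the controls.

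EIF2 carries the initiator tRNA to the ribosome as a complex of EIF2S1, EIF2S2 and EIF2S3, and none of these 3 subunits passed the test. EIF2S2, the member with the highest level, was at 69.8, 78.0 and 74.9 FPKM in shCtrl and at 72.8, 79.3 and 77.4 FPKM in shNAT10 libraries, overlapping throughout (log2 fold change 0.04, 95% interval -0.12 to 0.21, adjusted p = 0.649). EIF2S3B, a close copy of EIF2S3 and so uncertain, was at 0.16 with no call. EIF2S3 was at -0.01 (interval -0.15 to 0.13) and EIF2S1 at -0.18 (interval -0.33 to -0.02, adjusted p = 0.0699), the latter called lower without shCtrl replicate 2 (-0.22, adjusted p = 0.00679). EIF2A and EIF2D, which share the name but are separate single-chain factors that can deliver initiator tRNA on their own, were both higher. EIF2D (ENSG00000143486, chromosome 1, minus strand, 206571292 to 206612463) was at 5.05, 5.01 and 5.04 FPKM in shCtrl and at 8.19, 8.22 and 8.95 FPKM in shNAT10 libraries. Its control values were nearly equal and well below all shNAT10 values, and the log2 fold change was 0.74 (standard error 0.07, adjusted p = 0.00048). EIF2A was at 43.5, 44.7 and 45.7 FPKM in shCtrl and at 58.3, 60.9 and 61.5 FPKM in shNAT10 libraries, again with no overlap (0.43, standard error 0.06, adjusted p = 0.00165).

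The exchange factor EIF2B, which recharges EIF2 with GTP, had 2 of 5 subunits lower and none higher. EIF2B5, its catalytic subunit and the one with the highest level, was at 27.7, 34.1 and 30.3 FPKM in shCtrl and at 21.7, 22.3 and 21.1 FPKM in shNAT10 libraries, with all shNAT10 values below the controls (-0.49, standard error 0.09, adjusted p = 0.00476). EIF2B4 was at 7.68, 8.97 and 8.65 FPKM in shCtrl and at 6.56, 6.54 and 5.78 FPKM in shNAT10 libraries (-0.41, standard error 0.09, adjusted p = 0.0118), a call that was lost without shNAT10 replicate 3 (adjusted p = 0.0507). EIF2B1, EIF2B2 and EIF2B3 were at 0.12, 0.14 and -0.22 with no call, but without shCtrl replicate 2 EIF2B1 (0.18, adjusted p = 0.0322) and EIF2B2 (0.27, adjusted p = 0.0249) were called higher, EIF2B1 also with TPM (0.23, adjusted p = 0.0323). Of the 4 kinases that phosphorylate EIF2 and so restrain EIF2B, only EIF2AK2 was called. EIF2AK2 (ENSG00000055332, chromosome 2, minus strand, 37099210 to 37157065), the kinase PKR that senses double-stranded RNA, was at 25.1, 17.0 and 22.4 FPKM in shCtrl and at 10.99, 11.7 and 12.7 FPKM in shNAT10 libraries. Its lowest control was shCtrl replicate 2, still above the shNAT10 libraries (log2 fold change -0.84, standard error 0.15, adjusted p = 0.00402), and without that library it was -1.004. EIF2AK1, the heme-regulated kinase, had the highest level of the 4, with 65.8, 69.6 and 69.4 FPKM in shCtrl and 71.0, 71.1 and 72.9 FPKM in shNAT10 libraries, a difference that did not pass (0.07, adjusted p = 0.37), though it did with TPM (0.18, adjusted p = 0.0397). EIF2AK3 (PERK, the kinase of the endoplasmic reticulum) and EIF2AK4 (GCN2, which senses uncharged tRNA) were at -0.03 and 0.18 with no call. Since the kinases were not tested against each other, a difference between EIF2AK2 and the other kinases was not tested.

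Around the cap, EIF4E and the proteins that inhibit it were lower, and the scaffold EIF4G1 was higher. EIF4E, which binds the cap, was at 3.36, 3.598 and 3.56 FPKM in shCtrl and at 2.53, 2.80 and 2.46 FPKM in shNAT10 libraries, with no overlap (log2 fold change -0.42, standard error 0.10, adjusted p = 0.0145). EIF4E2, a cap-binding relative that does not recruit EIF4G and acts mainly in repression, was at 24.2, 28.1 and 24.5 FPKM in shCtrl and at 32.2, 32.6 and 32.3 FPKM in shNAT10 libraries (0.34, standard error 0.08, adjusted p = 0.0117). The pair thus moved in opposite directions, although neither call held in all fits with 1 library left out. That of EIF4E was lost without shCtrl replicate 3, shNAT10 replicate 1 or shNAT10 replicate 3 (adjusted p = 0.0571, 0.0553 and 0.0599), and that of EIF4E2 without shCtrl replicate 3 or shNAT10 replicate 2 (adjusted p = 0.0519 and 0.0515). EIF4ENIF1, which carries EIF4E into the nucleus, was at 0.08 with no call.

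The EIF4E-binding proteins, which keep EIF4E from EIF4G until mTORC1 phosphorylates them, were both lower. EIF4EBP1 was at 23.1, 31.1 and 25.4 FPKM in shCtrl and at 15.7, 16.8 and 13.6 FPKM in shNAT10 libraries, with no overlap between the groups (log2 fold change -0.78, standard error 0.13, adjusted p = 0.00332). EIF4EBP2 was at 22.2, 19.97 and 21.15 FPKM in shCtrl and at 14.6, 13.4 and 14.8 FPKM in shNAT10 libraries, likewise separate (-0.56, standard error 0.07, adjusted p = 0.00142). EIF4EBP3 was under the filter, and 73.4% of its exon bases are shared with ANKHD1-EIF4EBP3 on the same strand. The scaffold EIF4G1 was slightly higher, at 205, 189 and 191 FPKM in shCtrl and 227, 218 and 219.6 FPKM in shNAT10 libraries (0.19, standard error 0.06, adjusted p = 0.0484), and its call was made in 8 of 16 alternatives. It was lost without shCtrl replicate 3 and without each shNAT10 library (adjusted p = 0.131 to 0.168). EIF4G2, which lacks the site for EIF4E, had the highest level of the group, with 433, 359 and 411 FPKM in shCtrl and 422, 423 and 434.6 FPKM in shNAT10 libraries, and it had no call (0.09, adjusted p = 0.396). EIF4G3 was at 0.36 (standard error 0.13, adjusted p = 0.0702), with its lowest control, 28.3 FPKM, in shCtrl replicate 2. It was called higher without that library (0.20, adjusted p = 0.027) and without shCtrl replicate 1 (0.47, adjusted p = 0.0205).

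The helicase EIF4A, which unwinds the mRNA, had no call among its 3 genes, and EIF4B, which stimulates it, was higher. EIF4A2 was at 57.7, 54.0 and 59.8 FPKM in shCtrl and at 59.3, 62.6 and 60.8 FPKM in shNAT10 libraries, overlapping (0.09, adjusted p = 0.3). EIF4A1 was listed at only 2.04 FPKM in shCtrl cells, from 41 to 91 reads per library, and 48.6% of its exon bases lie under another annotated gene on the same strand, so that its level and its change (-0.24) are uncertain. EIF4A3, known for its place in the exon junction complex, was at -0.24 with no overlap and no call (adjusted p = 0.102), and it was called without shCtrl replicate 1 (-0.31, adjusted p = 0.0464). EIF4B was at 154.5, 139 and 152 FPKM in shCtrl and at 177.5, 178 and 179 FPKM in shNAT10 libraries. The 3 shNAT10 values were close together and all above the controls (0.26, standard error 0.06, adjusted p = 0.0161), yet the call was lost without each of the shNAT10 libraries (adjusted p = 0.0634 to 0.0706). EIF4H, with a like role, was at 0.13 (adjusted p = 0.115) and was called higher in 4 of 16 alternatives, TPM among them (0.23, adjusted p = 0.0107).

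**Figure D3:**
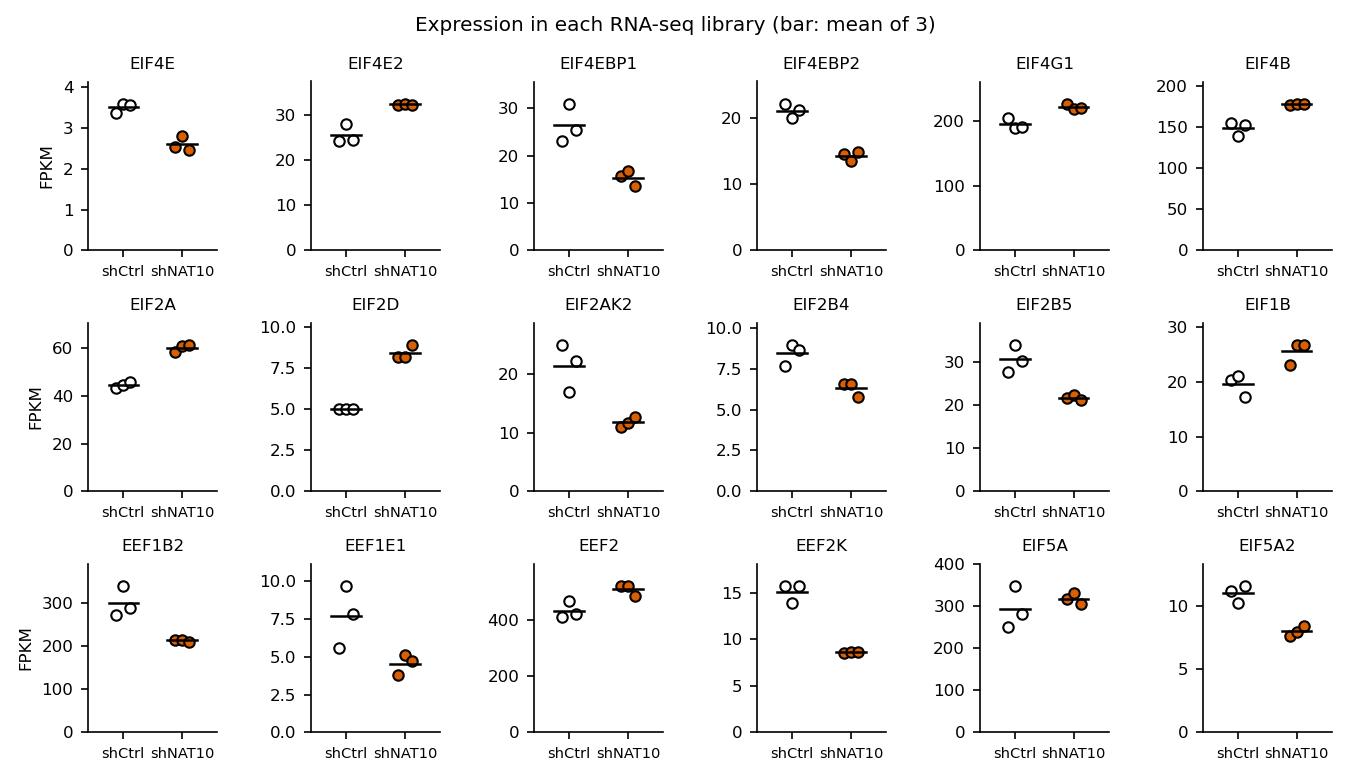
FPKM of 18 factor genes in each of the 6 RNA-seq libraries (vertical axes start at 0 and differ between panels), with open points for shCtrl, filled points for shNAT10 and a bar at the mean of 3. The groups do not overlap in any panel except that of EIF5A; EIF2AK2, EEF2K, EIF4EBP1 and EIF4EBP2 lie lower and EIF2D, EIF2A and EEF2 higher in shNAT10 cells.

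The factors that select the start codon were mixed. EIF1, which guards against wrong start codons, was at 87.6, 126 and 98.8 FPKM in shCtrl and at 87.6, 90.7 and 85.8 FPKM in shNAT10 libraries, with overlap and no call (-0.23, adjusted p = 0.199), though without shCtrl replicate 1 it was called (-0.34, adjusted p = 0.042), and without shCtrl replicate 2, its highest library, it was -0.08 (adjusted p = 0.306). Its close relative EIF1B was higher, from 20.3, 21.1 and 17.3 FPKM in shCtrl to 23.2, 26.7 and 26.9 FPKM in shNAT10 libraries (0.39, standard error 0.10, adjusted p = 0.0205). EIF1AX, which fills the decoding site before the tRNA, was lower, from 15.2, 14.8 and 16.6 FPKM to 12.4, 13.1 and 12.6 FPKM (-0.29, standard error 0.07, adjusted p = 0.017). EIF1AD, named for its EIF1A domain, was at 24.3, 23.0 and 24.2 FPKM in shCtrl and at 18.4, 18.5 and 18.0 FPKM in shNAT10 libraries (-0.38, standard error 0.06, adjusted p = 0.00311). The fall of EIF1AD was called in all 16 alternatives. The calls of EIF1B and EIF1AX were both lost without shCtrl replicate 3 (adjusted p = 0.0655 and 0.0698), without shNAT10 replicate 2 (0.0801 and 0.0512) and without shNAT10 replicate 3 (0.0806 and 0.0672), and that of EIF1AX also without shNAT10 replicate 1 (0.0705) and with TPM (-0.18, adjusted p = 0.136).

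EIF5 stimulates the GTPase of EIF2, EIF5B joins the ribosomal subunits, and EIF5A relieves stalled ribosomes after its lysine is converted to hypusine. EIF5 and EIF5B were at 0.04 and 0.19 with no call, the latter being called higher without shCtrl replicate 2 (0.22, adjusted p = 0.0139) and with TPM (0.30, adjusted p = 0.00691). EIF5A was at 250.2, 349 and 282 FPKM in shCtrl and at 318, 330.5 and 306 FPKM in shNAT10 libraries, within the range of the controls (0.13, adjusted p = 0.431). Without shCtrl replicate 2, its highest control, it was called at 0.26 (adjusted p = 0.0114). EIF5A2, the second gene for this factor, was lower, from 11.2, 10.3 and 11.6 FPKM to 7.65, 7.93 and 8.45 FPKM (-0.45, standard error 0.08, adjusted p = 0.00459). DHPS, the first enzyme of hypusine synthesis, was lower (-0.65, adjusted p = 0.0034). DOHH, listed with DHPS, had no call (-0.13, adjusted p = 0.461). Both are named after their values were seen. EIF5AL1 resembles EIF5A, and its 2.19 FPKM in shCtrl cells is uncertain, as is its change of 0.26 (adjusted p = 0.237; without shCtrl replicate 2, 0.41 with adjusted p = 0.0312). EIF6, which keeps the large subunit from joining early, was at 48.0, 62.4 and 49.5 FPKM in shCtrl and at 43.9, 47.4 and 43.1 FPKM in shNAT10 libraries, with all shNAT10 values lower and no call (-0.24, adjusted p = 0.119). The value was -0.12 without shCtrl replicate 2 and -0.04 with the length and GC correction.

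In elongation, EEF1A1 delivers the tRNA and EEF1B2, EEF1D and EEF1G reload it with GTP. EEF1A1 had the highest level of all factor genes, with 1488, 1657 and 1598 FPKM in shCtrl and 1417, 1485 and 1372 FPKM in shNAT10 libraries. The groups were barely separate and the test did not pass (log2 fold change -0.15, 95% interval -0.32 to 0.02, adjusted p = 0.135), and reads could be split with its many pseudogenes. EEF1B2 was lower, at 272, 341 and 289 FPKM in shCtrl and at 214.6, 215 and 211 FPKM in shNAT10 libraries, with shCtrl replicate 2 the highest and no overlap (-0.49, standard error 0.09, adjusted p = 0.00571). EEF1E1, a small protein of the aminoacyl-tRNA synthetase complex that carries the EEF1 name, was at 5.57, 9.73 and 7.86 FPKM in shCtrl and at 3.81, 5.11 and 4.73 FPKM in shNAT10 libraries. This is a low gene with as few as 65 reads in a library, and its fall (-0.72, standard error 0.21, adjusted p = 0.0292) was lost without shCtrl replicate 3 (adjusted p = 0.0863) and without each shNAT10 library (adjusted p = 0.0517 to 0.101). EEF1D was at 0.32 (adjusted p = 0.0739) and EEF1A2 at 0.19 (adjusted p = 0.275), and without shCtrl replicate 2 both were called higher (0.46, adjusted p = 0.00082, and 0.34, adjusted p = 0.00366). EEF1D was called higher in 5 of 16 alternatives in all, TPM among them (0.43, adjusted p = 0.00992). For EEF1A2 it was 3 of 16, also with TPM (0.30, adjusted p = 0.0406). EEF1G was listed at 0 in all 6 libraries, and 99.9% of its exon bases are shared with AP002990.1 on the same strand, so its value says nothing of its level. Smaller shares of exon bases are shared in the same way by EEF1E1 (18.65%), EIF6 (17.4%), EEF1B2 (16.4%) and EIF4A2 (10.5%).

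EEF2 moves the ribosome by a codon, and EEF2K, the kinase that phosphorylates and inactivates it, went the other way. EEF2 was at 409, 465 and 419 FPKM in shCtrl and at 519, 521 and 485 FPKM in shNAT10 libraries, a small rise with no overlap (log2 fold change 0.24, standard error 0.07, adjusted p = 0.0371). EEF2K (ENSG00000103319, chromosome 16, plus strand, 22206282 to 22288732) was at 15.8, 13.9 and 15.7 FPKM in shCtrl and at 8.52, 8.61 and 8.63 FPKM in shNAT10 libraries. The shNAT10 libraries were nearly equal, and far under the lowest control (-0.81, standard error 0.08, adjusted p = 0.000356). The call of EEF2K was made in all 16 alternatives, and that of EEF2 in 7, being lost without any 1 of the libraries except shCtrl replicate 2 (adjusted p = 0.0697 to 0.138). EEF2KMT, a methyltransferase of EEF2, had no call (-0.24, adjusted p = 0.247). Of the methyltransferases of EEF1A, EEF1AKMT3 was higher, from 4.32, 4.01 and 4.60 FPKM to 5.33, 5.53 and 5.45 FPKM (0.33, standard error 0.08, adjusted p = 0.0194), a call lost without each of the shNAT10 libraries (adjusted p = 0.0589 to 0.0761). EEF1AKMT1, with as few as 19 reads in a library, was at -0.82 (standard error 0.29, adjusted p = 0.0593), called only with the replicate number as a block (adjusted p = 0.00942) and without shNAT10 replicate 2 (-1.04, adjusted p = 0.0479), and EEF1AKMT2 was at -0.04. The members not tested were EEF1G, EEF1E1-BLOC1S5, EIF3CL, EIF4E1B, EIF4E3, EIF4EBP3 and EIF1AY, each under the filter, with EEF1AKMT4 and EEF1AKMT4-ECE2 not in the table.

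Other genes of the translation pathway were counted in lists. In release and recycling, 3 of 8 tested genes were higher and none lower, led by DENR (0.89, adjusted p = 0.000135), which pairs with MCTS1 and resembles EIF2D as a pair, and GSPT1 (0.51, adjusted p = 0.000816), a termination factor. MCTS1 was at 0.34 (adjusted p = 0.0541), named after its value was seen as the partner of DENR. In poly(A) binding and initiation helicases, 4 of 10 were higher and 2 lower, with LARP4 falling (-0.88, adjusted p = 0.00466) and LARP1, which binds mRNAs of the translation machinery, rising (0.62, adjusted p = 0.00428). Among phosphatases and sensors of the stress response, 5 of 10 were higher and 1 lower, led by the phosphatase subunit PPP1CB (0.78, adjusted p = 0.000614) and TRIB3 (0.63, adjusted p = 0.00567), a target of the stress response. ATF4, its main transcription factor and named for that reason, was at -0.14 (adjusted p = 0.242).

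Of the inputs from mTORC1 and the MNK kinases, 2 of 10 were higher and 2 lower. MKNK2 and MKNK1, the kinases that phosphorylate EIF4E, stood at both ends, with MKNK2 at 49.6 ± 3.39 FPKM in shCtrl and 98.0 ± 7.30 FPKM in shNAT10 cells (SD, n = 3; log2 fold change 0.98, adjusted p = 0.000264) and MKNK1 at 12.5 ± 0.946 and 6.94 ± 0.265 FPKM (-0.84, adjusted p = 0.000435). Enzymes of hypusine and diphthamide, the modifications of EIF5A and EEF2, were 3 higher and 3 lower of 9, with DPH3 (0.76, adjusted p = 0.00023) and DPH5 (0.70, adjusted p = 0.000735) changing the most. In selenocysteine elongation 2 of 6 were lower and none higher, namely SEPHS2 (-0.51, adjusted p = 0.00179) and PSTK (-0.35, adjusted p = 0.046), and among mitochondrial translation factors 4 of 10 were higher and 1 lower, led by MTIF2 (0.72, adjusted p = 0.000494) and MTRF1 (0.63, adjusted p = 0.00406). Beside the 42.0% of all genes called in either direction, no more is read from these counts.

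Transcript length moved with the result across all genes, since the median log2 fold change went from -0.13 in the shortest of 4 equal classes of transcripts to 0.13 in the longest. The factor genes called higher had a median length of 3745 bases and those called lower 3959 bases. After a correction of each library for length and GC content, chosen after the data were seen, all 28 calls were made again in the same direction and 7 more genes were called, for 16 higher and 19 lower in all. The estimate for EIF3F went from 0.91 to 0.71 and that for EIF2AK2 from -0.84 to -1.07. Larger shifts in proportion were those of EIF4E (-0.42 to -0.66), EIF4EBP1 (-0.78 to -0.50) and EEF2 (0.24 to 0.40). The 7 added genes included EIF5A (0.31, adjusted p = 0.000916), EEF1A2 (0.45, adjusted p = 7.04e-05) and EEF1A1 (-0.23, adjusted p = 0.0386), named after their values were seen.

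**Figure D4:**
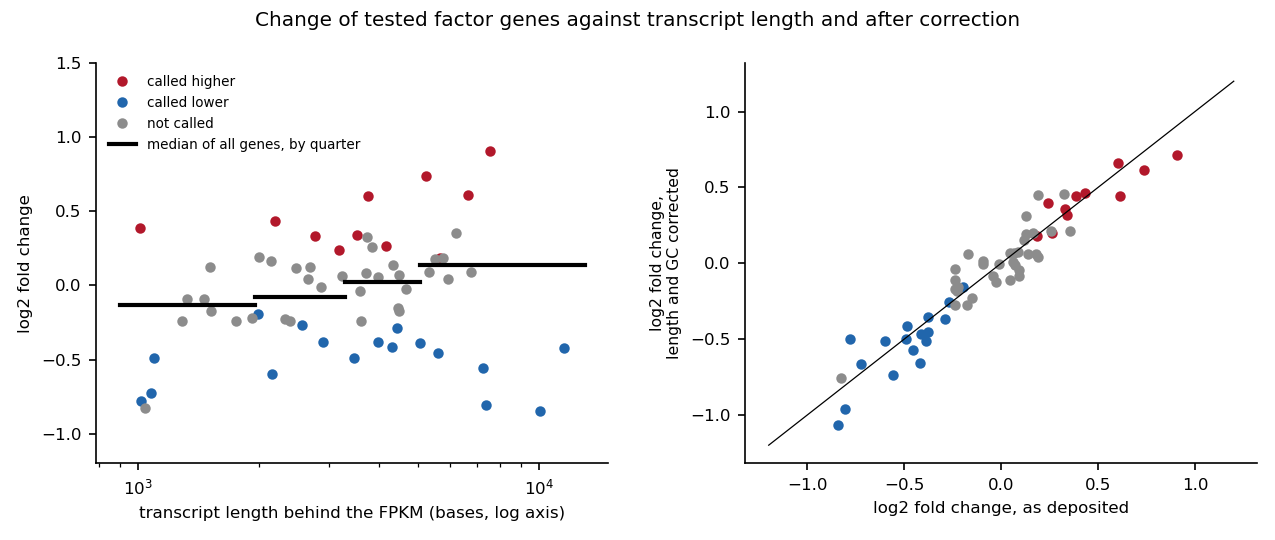
Left, log2 fold change of the 62 tested factor genes (vertical axis) against the transcript length behind their FPKM in bases (log axis), with black bars at the median of all genes in each of 4 classes of length, from -0.13 to 0.13. Right, the same changes after correction for length and GC content (vertical axis) against the uncorrected ones (horizontal axis), with the line of equal values; called genes stayed on their side of 0.

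The acRIP-seq lists, 1 per group, were read for peaks on factor genes, where the authors' caller gave each peak an enrichment of IP over input, as a ratio. With 1 list per group no difference between the lists can be set against replicate spread. Factor genes carried 116 peaks in shCtrl and 112 in shNAT10 cells, on 46 and 45 of the 71 genes, with 35 genes in both lists. Of the 62 tested factor genes, 44 (71.0%, 95% Wilson interval 58.7% to 80.8%, covering counting error only) carried a peak in shCtrl cells and 43 (69.4%, 57.0% to 79.4%) in shNAT10 cells, against 49.6% and 47.7% of all tested genes. A peak in both lists was present on 34 of them (54.8%), against 33.7% of all tested genes. This order turned when peaks were limited to the 50% most enriched in their list, at 24.2% against 29.8% in shCtrl cells, 22.6% against 28.5% in shNAT10 cells and 9.68% against 14.6% in both. The share of protein-coding genes with a peak also rose with expression up to 100 FPKM. At a mean of 20 to 100 FPKM, 74.1% of 27 factor genes and 71.5% of protein-coding genes carried a shCtrl peak, and at 5 to 20 FPKM the shares were 73.3% of 15 and 57.4%, with the interval of the factor genes (48.1% to 89.1%) including the latter. In shNAT10 cells they were 85.2% (67.5% to 94.1%) and 69.4% at 20 to 100 FPKM, and 46.7% (24.8% to 69.9%) and 55.5% at 5 to 20 FPKM. At 100 FPKM or more the shares were 75% of 12 factor genes (46.8% to 91.1%) and 63.9% in shCtrl cells. In shNAT10 cells that range gave 83.3% (55.2% to 95.3%) and 62.95%. At 1 to 5 FPKM they were 50% of 8 and 38.6% in shCtrl cells, and 37.5% and 37.1% in shNAT10 cells.

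EIF4EBP2 had the most peaks of any member in a list, 8 in shNAT10 cells against 1 in shCtrl cells, while its RNA was lower. Its strongest shNAT10 peak, of 601 bases in the 3′ UTR (chr10:70426669-70427269), had a fold enrichment of 666 and overlapped no shCtrl peak. Its shCtrl peak lay elsewhere in the 3′ UTR (chr10:70423311-70423671) and had 8.38. The shNAT10 peak that shared 151 bases with that shCtrl peak had 9.9. EIF5B went the other way, with 6 peaks in shCtrl and 1 in shNAT10 cells, and its shCtrl peak in the 3′ UTR (chr2:99400217-99400457) had the highest fold enrichment of all factor peaks, 1520. In the shNAT10 list the highest was 859, for a peak on EIF3E outside its longest coding transcript. EIF4A2 had 6 peaks in each list, EEF2 had 6 and 3, EIF5 had 5 and 6, and EIF4G3 had 5 and 6. Listed with peaks in shCtrl cells alone were EIF2AK4 (4 peaks), EIF2AK2, EIF3F and EIF2B4 (3 each), EIF1B, EIF2D and EIF2B2 (2 each), EIF2S3B, EEF1AKMT2 and EEF1AKMT3 (1 each) and a Y-linked member. Those in shNAT10 cells alone were EIF4A3 (3 peaks), EIF2AK3, EIF3G and EIF3H (2 each), and EIF4E, EIF4EBP3, EIF4G1, EIF6, EEF1A2 and EEF1AKMT1 (1 each). Of the tested genes, 16.1% of the factor genes and 15.8% of all genes carried a peak in shCtrl cells alone, and 14.5% and 13.9% in shNAT10 cells alone. The 15 genes with none included EIF3K and EIF5A, at a mean of 725 and 294 FPKM in shCtrl cells, and EIF4EBP1.

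**Figure D5:**
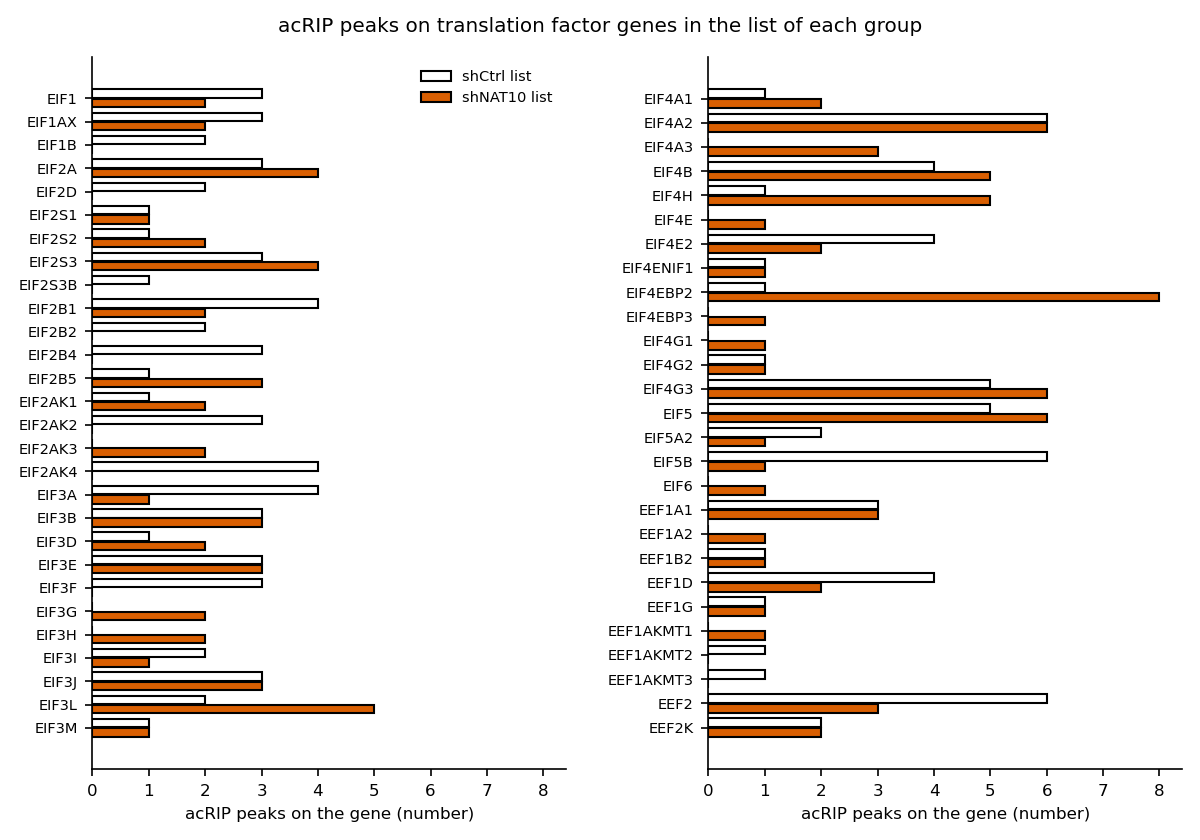
Number of acRIP peaks (horizontal axis) on each factor gene with a peak in at least 1 list, without the Y-linked member, with open bars for the shCtrl list and filled bars for the shNAT10 list. EIF4EBP2 goes from 1 to 8 and EIF5B from 6 to 1, and EIF4A2 has 6 in each.

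Fold enrichment was lower on factor genes than on all genes, with a median of 11.4 against 49.3 in shCtrl and 8.90 against 45.2 in shNAT10 cells. The gap was narrower on genes of higher expression. On genes at 20 to 100 FPKM they were 10.8 against 14.6 in shCtrl and 9.84 against 13.2 in shNAT10 cells, and on genes at 100 FPKM or more 4.41 against 4.86 and 3.51 against 4.89. On genes at 5 to 20 FPKM the gap stayed wide, with 33.5 against 59.4 and 16.9 against 54.55, and at 1 to 5 FPKM the medians over 4 factor peaks in each list were 21.2 against 205.5 and 47.6 against 210.5. By the midpoint of the peak on the longest coding transcript, 63.0% of 92 factor peaks in shCtrl cells lay in the CDS (52.8% to 72.2%), beside 57.1% of all peaks, 35.9% in the 3′ UTR and 1.09% in the 5′ UTR. In shNAT10 cells 64.3% of 84 lay in the CDS (53.6% to 73.7%), beside 57.3%.

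Of the 116 shCtrl factor peaks, 39 (33.6%, 25.7% to 42.6%) overlapped a shNAT10 peak by at least 1 base on the same strand, beside 25.6% of all shCtrl peaks. Among the 50% of highest fold enrichment it was 3.57% of 28, beside 17.2%. Of the 112 shNAT10 factor peaks, 41 (36.6%, 28.3% to 45.8%) overlapped a shCtrl peak, beside 27.4% of all shNAT10 peaks. Shown are the 4 peaks of highest shCtrl fold enrichment among those that overlapped a shNAT10 peak of the same gene, had all their bases in the CDS of 1 transcript and were short enough to print, which left out a longer peak on EIF5 (40.5) and a peak on EEF1G (22.8). They mark where the antibody enriched the same factor mRNA in both groups, read 5′ to 3′ from GENCODE v29 transcripts of GRCh38, with capitals for bases that the peaks of both lists share. Positions are the outer bounds of peaks whose blocks are exons.
EIF4G3 (chr1:20825194-20829270, minus strand, 211 bases): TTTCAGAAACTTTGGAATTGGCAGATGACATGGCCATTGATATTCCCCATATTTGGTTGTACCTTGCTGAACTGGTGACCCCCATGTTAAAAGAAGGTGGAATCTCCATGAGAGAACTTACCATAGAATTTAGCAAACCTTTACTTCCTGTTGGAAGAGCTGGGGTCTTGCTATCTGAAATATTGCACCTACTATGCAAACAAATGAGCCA
EIF4G3 (chr1:20851366-20853627, minus strand, 181 bases): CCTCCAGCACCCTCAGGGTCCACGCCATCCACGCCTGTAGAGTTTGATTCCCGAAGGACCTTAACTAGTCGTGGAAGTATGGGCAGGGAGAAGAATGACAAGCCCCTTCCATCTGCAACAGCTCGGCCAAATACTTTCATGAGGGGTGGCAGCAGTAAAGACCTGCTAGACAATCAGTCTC
EIF2S3 (chrX:24057424-24057717, plus strand, 210 bases): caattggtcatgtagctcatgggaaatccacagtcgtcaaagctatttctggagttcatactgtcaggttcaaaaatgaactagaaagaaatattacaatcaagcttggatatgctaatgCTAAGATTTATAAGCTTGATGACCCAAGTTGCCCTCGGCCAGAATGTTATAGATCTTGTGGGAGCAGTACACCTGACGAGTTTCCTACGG
EIF4G3 (chr1:20879480-20886340, minus strand, 181 bases): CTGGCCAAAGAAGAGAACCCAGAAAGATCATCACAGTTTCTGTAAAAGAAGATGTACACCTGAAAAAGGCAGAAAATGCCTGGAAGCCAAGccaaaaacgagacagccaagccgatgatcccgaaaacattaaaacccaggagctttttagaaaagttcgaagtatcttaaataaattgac
The first EIF4G3 peak had a fold enrichment of 57.2 in shCtrl and 31.7 in shNAT10 cells, and all of its 211 bases were shared. The second had 19.2 and 5.88, with all 181 bases shared, the EIF2S3 peak 16.2 and 11 with 90 of 210 bases shared, and the last EIF4G3 peak 9.39 and 8.77 with 91 of 181 bases shared. The sources used here do not say whether fold enrichment is on 1 scale in both lists. No change is read from these values. The RNA of EIF4G3 and EIF2S3 had no call in the RNA-seq.

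Peaks and changes of RNA were set side by side. Of the 34 tested factor genes with peaks in both lists, 6 were higher and 10 lower, with a median log2 fold change of 0.04. Of the 10 with peaks in shCtrl cells alone, 4 were higher (EIF3F, EIF2D, EIF1B and EEF1AKMT3) and 2 lower (EIF2AK2 and EIF2B4), with a median of 0.17. Those with peaks in shNAT10 cells alone were 9, with 1 higher (EIF4G1), 2 lower (EIF3H and EIF4E) and a median of -0.24, and the 9 with no peak were 0 higher and 3 lower with a median of -0.22. Over all genes the medians of these classes were 0.03, -0.01, -0.04 and -0.04 in the same order. Of all genes tested, 1105 were higher and 922 lower of 4377 with peaks in both lists. With peaks in shCtrl cells alone it was 437 and 404 of 2056, and in shNAT10 cells alone 360 and 436 of 1810. With no peak it was 797 and 989 of 4739. With 10 or fewer factor genes in 3 of the 4 classes, their counts are given as a description, and no link to peaks is read from them.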

How the data were processed

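RNA-seq values and acRIP-seq peak lists of 18 libraries were used, grouped by their labels. The authors deposited FPKM per gene for each RNA-seq library, made from reads counted on genes. The submitters' processing notes list HISAT2 2, HTSeq 0.11.0 and DESeq2 1.22.2 and the builds hg38 and GRCh38. For acRIP-seq the authors deposited 1 peak list per group, with a fold enrichment as a ratio of IP over input and a p-value per peak (also on a log10 scale); the peak caller is not given in the sources used here. Poly(A) RNA was captured for RNA-seq, so tailless RNA is not measured.

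Genes were named from GENCODE v29. The members and the lists of other translation genes were chosen with earlier results of these data known. Named were, per factor group, up to 3 called members of largest change and the member of highest FPKM. Also named were any past a log2 fold change of 1, and up to 2 called genes per further list. For peaks, members with most peaks, highest fold enrichment or peaks in 1 list alone were named. For sequences, up to 4 coding peaks outside chromosome 8 and found in both lists were taken. The other members are given by their change, and other genes named for another reason are marked.

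limma 3.58.1 in R 4.3.3 was fitted with a mean-variance trend on log2(FPKM + 0.1), a scale that understates the change of low genes. Whole reads were recovered from the FPKM steps for 99.97% of values above 0 (within 0.01 reads) and used, with TMM scaling factors, in limma's voom as an alternative. Peaks overlapping by at least 1 base on a strand were counted as shared, and shares carry 95% Wilson intervals. A correction of each library by splines of transcript length and GC content, and the search for pyrimidine starts, were chosen after seeing the data. Python 3.11.15, pandas 2.3.3, NumPy 2.4.6, SciPy 1.17.1 and matplotlib 3.10.9 were used. The alternatives are listed in the closing section. The deposited tables held no columns of samples outside the series. A marker gene on the ductal list is not reported here.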

Additional observations from a re-analysis of the deposited data

How the results depend on the processing

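The RNA-seq alternatives were a pseudocount of 1 FPKM, no filter, a minimum of 5 FPKM, TPM, median centring, quantile normalization, a block for the replicate number, limma with no trend, each library left out, voom on recovered reads and, added after the data were seen, a correction for length and GC content. Factor genes called higher numbered 11, and 17 with TPM and with quantile normalization; leaving out 1 library gave 5 (without shNAT10 replicate 2) to 20 (without shCtrl replicate 2), with 7 without shCtrl replicate 3, 7 without shNAT10 replicate 1 and 6 without shNAT10 replicate 3. Those called lower numbered 17, and 10 (without shNAT10 replicate 3) to 19 (without shCtrl replicate 1) with 1 library left out, 11 each without shCtrl replicate 3 and without shNAT10 replicate 1. Past a log2 fold change of 1 there were 0, then 1 with TPM (EIF3F), 1 with the length and GC correction (EIF2AK2) and 0 to 2 with 1 library left out, the 2 being EIF3F and EIF2AK2 without shCtrl replicate 2. The median of -0.02 became 0.0896 with TPM and 0.0448 with quantile normalization, and was -0.02 to 0.01 with 1 library left out. NAT10 was called in all, from -1.88 to -1.79 with 1 library left out. With quantile normalization EEF1A1 and EIF3K, not called otherwise in this direction, were called higher at 0.11 (adjusted p = 0.0306) and 0.13 (adjusted p = 0.0221). Over all genes, 2699 were called higher and 2751 lower, against as few as 1774 (without shNAT10 replicate 2) and 1765 (without shNAT10 replicate 3), and 841 passed the fold threshold, against 429 with a pseudocount of 1 FPKM and 448 with a minimum of 5 FPKM. The cause of these shifts was not tested.

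The replicate block gave 10 higher and 17 lower, 25 of the 28 calls and 2 others. The numbers were not taken to pair the libraries, as deviations of same-numbered libraries correlated at -0.04, 0.06 and 0.11, and the block changed the calls of EEF2 (adjusted p = 0.0568), EIF3E (0.0757) and EIF4G1 (0.0805), and added EIF4G3 (0.0473) and EEF1AKMT1 (0.00942). For peaks, the 50% of highest fold enrichment left 16 factor genes with a shCtrl peak, 15 with a shNAT10 peak and 6 with both, and 3.57% of 28 shCtrl peaks overlapping (all peaks: 17.2%); the 50% of lowest p-values left 34, 31 and 20 genes and 24.6% overlapping (all peaks: 20.8%). A reciprocal overlap of 50% gave 19.8% (all peaks: 12.75%).

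Depth limits the low genes most, EEF1AKMT1 among them, and FPKM of genes with shared exons, EIF4A1 among them, can be too low. With 1 peak list per group, neither the gain nor the loss of a peak has a replicate check.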
